A study of Mus musculus with 6 samples.

Results

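The levels of 10 genes of the interleukin-1 (IL-1) family and of the inflammasome were measured in neutrophils from the blood and from brain tumors of mice. The genes are Il1a, Il1b, Il1rn, Il1r1, Il1r2, Il1rap, Il18, Nlrp3, Casp1 and Casp4. They were chosen by symbol, and each matched 1 row, 10 of the 32285 genes listed in every library. The tumors grew from SB28 cells, a mouse glioma line, of which 10000 were injected per mouse, and cells were taken on day 18. Each of 3 groups had 2 libraries, made from single cells in droplets with a 3' kit: all CD45+ cells (leukocytes) of the tumor, neutrophils sorted from blood, and neutrophils sorted from the tumor. The sort gate was CD45+ CD11b+ LY6Ghigh LY6Clo/- and the mice were perfused after the blood was drawn and before the tumor was removed. All groups came from tumor-bearing mice, and mice without a tumor were not analysed here. Genotype, sex and age are not given in the sources used here. The labels number the libraries without stating whether separate mice gave them. The p-values below therefore measure only the spread between these libraries, which may be technical.

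IL-1α (Il1a) and IL-1β (Il1b) bind the same receptor, IL-1R1 (Il1r1), which signals only together with its accessory protein (Il1rap). The receptor antagonist (Il1rn) occupies the receptor without signalling, and IL-1R2 (Il1r2) is a decoy that binds IL-1 and does not signal. IL-1β and IL-18 (Il18) are made as inactive precursors that caspase-1 (Casp1) cuts. Caspase-1 is activated in inflammasomes, protein complexes built around a sensor such as NLRP3 (Nlrp3), and Casp4 encodes the mouse caspase that senses cytosolic lipopolysaccharide. IL-1α is active without this cut. Neutrophils are known as a source of IL-1β, of the antagonist and of the decoy receptor. Transcript counts do not show whether a protein was made, cut or released.

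All 10 genes are protein coding in the GENCODE vM21 annotation of mm10. Il1a (chr2:129299610-129309972, minus strand) and Il1b (chr2:129364570-129371139, minus strand) are neighbours 54598 bases apart, and Il1rn lies elsewhere on the chromosome (chr2:24336853-24351494, plus strand). The receptor genes Il1r2 (chr1:40074079-40125231) and Il1r1 (chr1:40225080-40317257) are 99849 bases apart, and Casp1 (chr9:5298517-5307265) and Casp4 (chr9:5308828-5336783) 1563 bases. Il18 (chr9:50554827-50581840), Nlrp3 (chr11:59541568-59566956) and Il1rap (chr16:26581704-26730117) stand alone. Annotated genes on the opposite strand overlap Il1a, Il1b, Il1r2, Il1rap and Il18, and 1 gene each on the same strand overlaps Il1r1 and Il1r2. The sources used here do not say whether strand was used in counting, so reads of such partners may be included.

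Of the ligand genes that rose in tumor neutrophils, the promoter of Il18 is not shown. The promoters of the 3 whose products bind IL-1R1, Il1a, Il1b and Il1rn, are given here. Each is a stretch before a transcription start in RefSeq (GRCm38.p6, the assembly of mm10), 5′ to 3′ on the gene's strand: chr2:129309973-129310222 for Il1a, chr2:129371140-129371389 for Il1b and chr2:24336610-24336852 for Il1rn. The Il1rn stretch is printed up to the first GENCODE exon and so ends 7 bases short of the RefSeq start. Il1rn has 3 RefSeq starts, and the windows of the other 2 hold none of the motifs searched. Capitals mark matches, on either strand, to an AP-1 motif (TGANTCA), a PU.1 motif (GAGGAA) and a TATA box (TATAAA).
Il1a: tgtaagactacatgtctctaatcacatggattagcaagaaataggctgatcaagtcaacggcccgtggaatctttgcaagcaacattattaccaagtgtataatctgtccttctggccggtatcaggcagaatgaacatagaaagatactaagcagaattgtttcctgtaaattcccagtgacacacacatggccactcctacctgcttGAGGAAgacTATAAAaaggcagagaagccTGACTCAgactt
Il1b: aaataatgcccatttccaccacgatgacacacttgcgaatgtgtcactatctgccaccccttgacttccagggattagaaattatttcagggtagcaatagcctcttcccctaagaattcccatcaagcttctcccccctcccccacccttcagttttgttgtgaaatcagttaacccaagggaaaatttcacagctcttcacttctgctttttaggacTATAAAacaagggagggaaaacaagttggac
Il1rn: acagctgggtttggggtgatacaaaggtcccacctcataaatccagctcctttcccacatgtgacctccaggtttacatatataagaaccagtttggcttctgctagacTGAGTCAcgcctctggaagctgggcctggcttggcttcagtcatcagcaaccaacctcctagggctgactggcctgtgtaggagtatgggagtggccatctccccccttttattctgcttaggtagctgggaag
The Il1a promoter holds a PU.1 match from 41 to 36 bases before the start, a TATA box from 32 to 27 and an AP-1 match (TGACTCA) from 12 to 6. The Il1b promoter holds a TATA box from 31 to 26 bases before the start, and that of Il1rn an AP-1 match (TGAGTCA) from 141 to 135, all places counted back from the RefSeq start. None of the motifs overlaps another, and an NF-kB motif, also searched, has no match in the 3 windows shown. Among the other members, windows of Il1r1, Nlrp3 and Casp4 hold at least 1 NF-kB match. Of 32851 promoter windows of 250 bases, 6.75% held the AP-1 motif, 23.3% the PU.1 motif, 12.4% the TATA box and 7.25% the NF-kB motif. A match describes letters only and shows no binding.

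Neutrophils were the cells in which S100a8 and S100a9, the calprotectin genes, made up at least 0.5% of unique molecular identifiers (UMIs, one per captured transcript). They numbered 2951 and 5006 in blood, 3347 and 5548 in sorted tumor and 613 and 809 in the CD45+ libraries, with median depths of 3871.5 to 4253 UMIs per cell in the sorted libraries and 1614 and 2648 in CD45+ tumor. All 12 neutrophil markers looked up had UMIs in each library, although Ly6g, whose protein the gate used, stood at 85.3 and 82.1 CPM (counts-per-million, UMIs of a gene scaled to all UMIs of the cells summed, here a library's neutrophils) in blood and at 18.4 and 18.7 in sorted tumor. Macrophage transcripts were present among tumor neutrophils: 11 markers summed to 375 and 509 CPM in blood, 5238 and 4030 in sorted tumor and 8591 and 12703 in CD45+ tumor, with Gpnmb at 0 in blood. In the same order, 9 microglia markers summed to 321 and 254, 1220 and 846, and 1413 and 1761, with Sall1 and Sparc at 0 in blood. The results on levels are therefore also given, where they moved, for neutrophils with no UMI of the complement genes C1qa, C1qb and C1qc, abundant in macrophages and microglia. These numbered 2948 and 4917 in blood, 2382 and 3907 in sorted tumor and 378 and 374 in CD45+ tumor. CD45+ tumor library 1 and sorted tumor library 2 shared 162 cell barcodes (2.45% of the smaller library), and the other pairs of libraries 3 to 35 (at most 0.395%). Of the 162, 54 and 70 were neutrophils in these 2 libraries, and results that rest on them are given without them too.

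The sorted libraries compare neutrophils that reached the tumor with those still in blood. Of the 10 genes, 7 were higher in tumor neutrophils (Il1a, Il1b, Il1rn, Il1r1, Il18, Nlrp3 and Casp4), Casp1 was lower, and Il1r2 and Il1rap did not pass the test. The test was edgeR's quasi-likelihood test on UMIs summed per library, with Benjamini-Hochberg adjustment over all 13633 genes tested and an adjusted p under 0.05. Of all genes tested, 33.2% were higher and 30.7% lower. The 10 genes were chosen with this contrast known, so nothing is read from their count. For 9 of the 10, Il1r2 excepted, the tumor and blood libraries did not overlap, as for 83.5% of all genes tested. Without the shared barcodes the same numbers, 7 higher and 1 lower, were called, beside 3508 higher and 3427 lower of 13378 genes tested. Leaving out these cells took the neutrophil sum of sorted tumor library 2 from 24386241 to 22509263 UMIs. Its Il1a UMIs went from 6807 to 5903 and its Casp1 UMIs from 276 to 229. Levels are in CPM, as above, and fold changes are from the fit, which also scales libraries to each other.

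**Figure D1:**
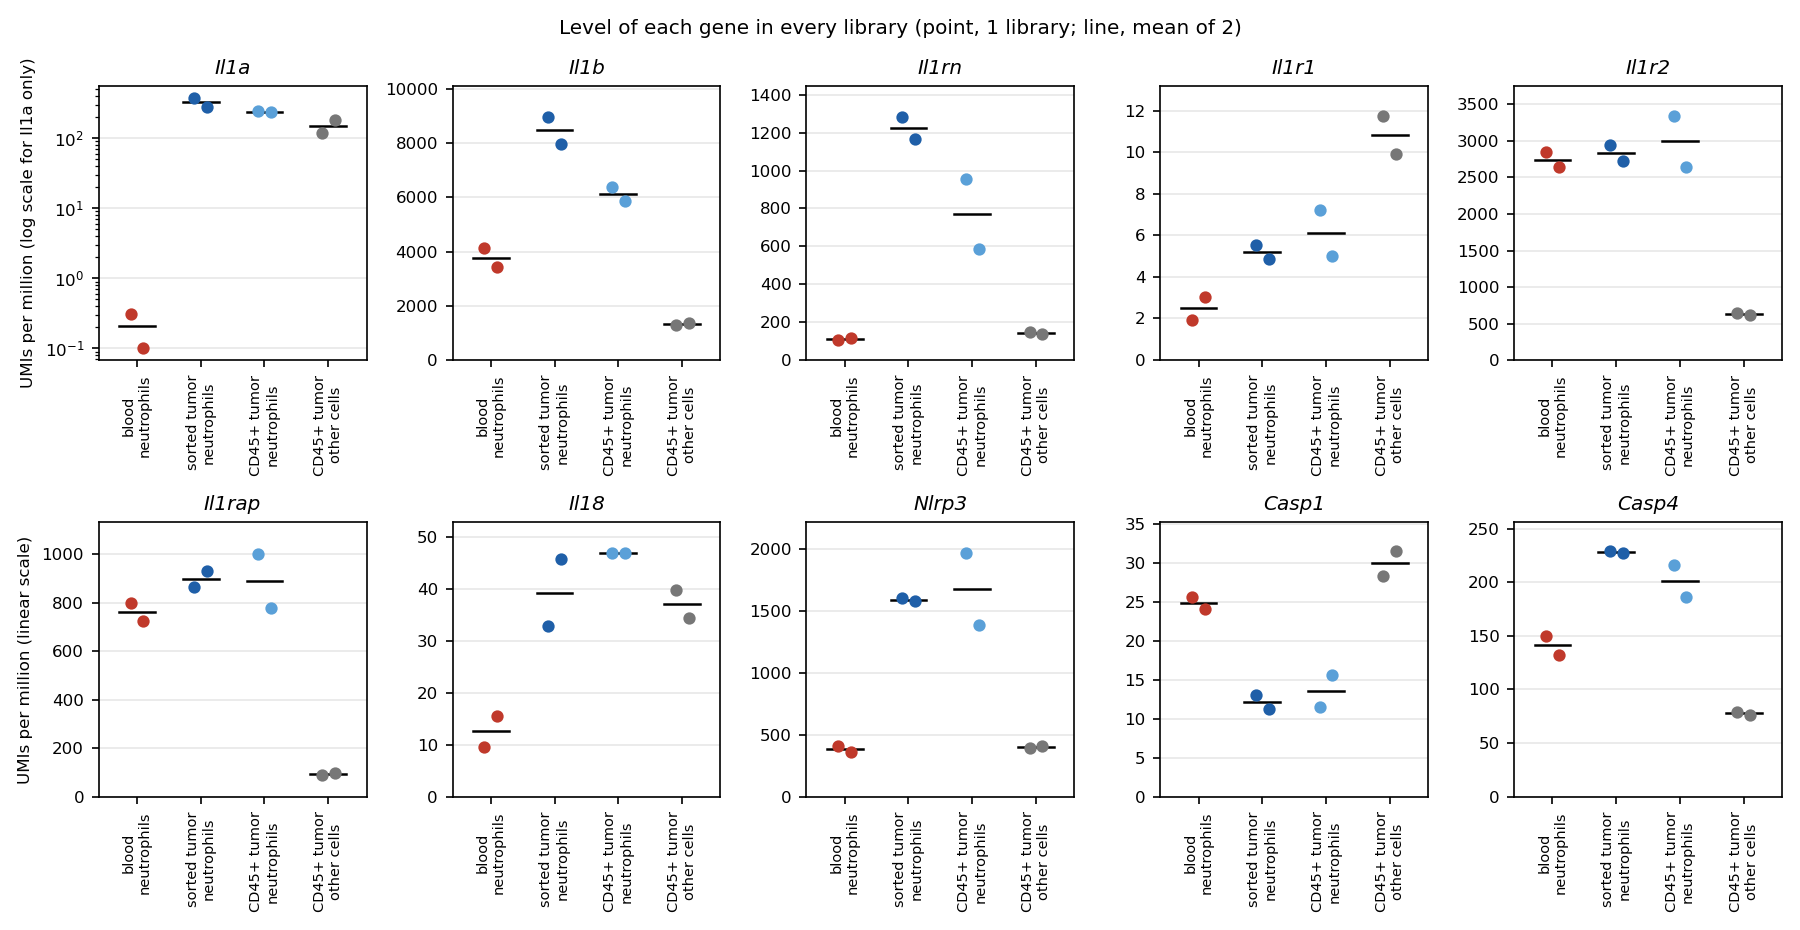
Level of each of the 10 genes in CPM, with 1 point per library and a line at the mean of the 2 libraries of a group. The columns are blood neutrophils, sorted tumor neutrophils, neutrophils of the CD45+ tumor libraries and the other CD45+ tumor cells. The Il1a axis is logarithmic and the others are linear. Il1a stands below 1 in both blood libraries and above 100 in every tumor point, while Il1r2 differs little among the neutrophil columns.

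Il1a was close to absent from blood neutrophils. Blood libraries 1 and 2 held 4 and 2 UMIs of it, or 0.311 and 0.103 CPM, against 5714 and 6807 UMIs, or 368.5 and 279.1 CPM, in sorted tumor libraries 1 and 2. Both tumor libraries were high and both blood libraries near 0. Summed over the libraries, the CPM in tumor was 1690 times that in blood (95% counting interval 776 to 4607, counting error only). The fitted log2 change was 10.76 ± 0.29 (SE, n = 2 libraries per group), with an edgeR adjusted p of 1.77e-06, and 11.44 ± 0.33 in neutrophils without C1q UMIs. By number of UMIs, Il1a was the 447th and 588th gene of tumor neutrophils and the 13372nd and 16010th of blood neutrophils.

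Il1b was already among the most counted transcripts of blood neutrophils. It stood at 4142 and 3416 CPM in blood and at 8971 and 7982 in sorted tumor, so that both tumor libraries were above both blood libraries. The log2 change was 1.22 ± 0.21 (2.33-fold), with an edgeR adjusted p of 0.00169. Without cells holding C1q UMIs the tumor libraries stood at 10196 and 8774 and the log2 change was 1.62 ± 0.20 (adjusted p 0.000309). Its place by UMIs moved from 14th and 18th in blood to 7th and 8th in tumor. The median neutrophil held 16 and 11 Il1b UMIs in blood and 33 and 28 in tumor at similar depth, and the cell at the 90th percentile held 35 and 29 against 93 and 78.

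Il1rn, the antagonist, rose more than Il1b. It stood at 107.3 and 115.1 CPM in blood and at 1281 and 1166 in sorted tumor. The blood libraries lay close together and far below both tumor libraries. The log2 change was 3.52 ± 0.14 (11.4-fold), with an edgeR adjusted p of 2.81e-06, and 3.89 ± 0.14 without C1q cells. Within a library, UMIs of Il1rn per UMI of Il1b were 0.0259 and 0.0337 in blood and 0.143 and 0.146 in tumor. UMIs of Il1a per 100 of Il1b were 0.00751 and 0.00301 in blood and 4.11 and 3.50 in tumor. The mixture of ligand transcripts thus held more antagonist and more Il1a per Il1b in both tumor libraries than in either blood library.

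Il18, the other ligand cut by caspase-1, was counted far less often. It stood at 9.56 and 15.5 CPM in blood (123 and 301 UMIs) and at 32.8 and 45.6 in sorted tumor (508 and 1113 UMIs). Both tumor libraries were above both blood libraries, with a wide gap between libraries of the same group. The log2 change was 1.72 ± 0.27 (3.28-fold, edgeR adjusted p 0.000925), and 1.99 ± 0.27 without C1q cells.

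Il1r2 and Il1rap, unlike the ligand genes, were not called in the main fit. Il1r2, the decoy, stood at 2843 and 2644 CPM in blood and at 2943 and 2730 in sorted tumor, and the libraries of the 2 groups overlapped. The log2 change was 0.10 ± 0.17 (edgeR adjusted p 0.610). Il1rap, the accessory chain that IL-1R1 and other receptors of the family share, stood at 798.6 and 723.9 in blood and at 863.8 and 932.2 in tumor, which did not overlap, with a log2 change of 0.30 ± 0.16 (adjusted p 0.130). Both calls depended on which cells counted as neutrophils. Without C1q cells the log2 changes were 0.53 ± 0.16 for Il1r2 (adjusted p 0.0205) and 0.69 ± 0.15 for Il1rap (adjusted p 0.00571), and at a threshold of 2% of UMIs for the S100 genes they were 0.46 (adjusted p 0.0358) and 0.65 (adjusted p 0.00545). Without sorted tumor library 1, Il1rap was called too, at 0.45 (adjusted p 0.0380).

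Il1r1, the signalling receptor, was scarce in every neutrophil library. It had 25 and 59 UMIs in blood (1.94 and 3.03 CPM) and 86 and 118 in sorted tumor (5.55 and 4.84 CPM). Both tumor libraries were above both blood libraries, and the log2 change was 1.09 ± 0.28 (2.13-fold, edgeR adjusted p 0.00949), and 1.55 ± 0.29 without C1q cells. At most 1.85% of the neutrophils of any sorted library held a UMI of it. The part of free RNA in these low Il1r1 counts was not tested. UMIs of the decoy Il1r2 per UMI of Il1r1 were 1463 and 872 in blood and 531 and 564 in tumor.

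Among the inflammasome genes, Nlrp3 and Casp4 rose and Casp1, which had few UMIs, fell. Nlrp3 stood at 404.6 and 363.2 CPM in blood and at 1605 and 1577 in sorted tumor. The libraries of each group lay close together, and the log2 change was 2.11 ± 0.16 (4.31-fold, edgeR adjusted p 2.49e-05). Casp1 stood at 25.7 and 24.1 in blood (331 and 469 UMIs) and at 13.1 and 11.3 in tumor (203 and 276 UMIs). Both tumor libraries were below both blood libraries, with a log2 change of -0.97 ± 0.14 (1.97-fold lower, adjusted p 0.000712). The part of free RNA in these low Casp1 counts was not tested. Casp4, next to Casp1 in the genome, moved the other way. It stood at 149.9 and 132.3 in blood and at 229.1 and 227.2 in tumor, with a log2 change of 0.75 ± 0.13 (1.68-fold, adjusted p 0.00179). In neutrophils without C1q UMIs these changes were 2.43 ± 0.15 for Nlrp3, -1.09 ± 0.17 for Casp1 and 0.95 ± 0.13 for Casp4. Macrophage and microglia transcripts moved in the same direction as the 7 genes that rose, and their part in those rises was not tested beyond leaving out cells with C1q UMIs, without which each of the 7 log2 changes was larger.

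**Figure D2:**
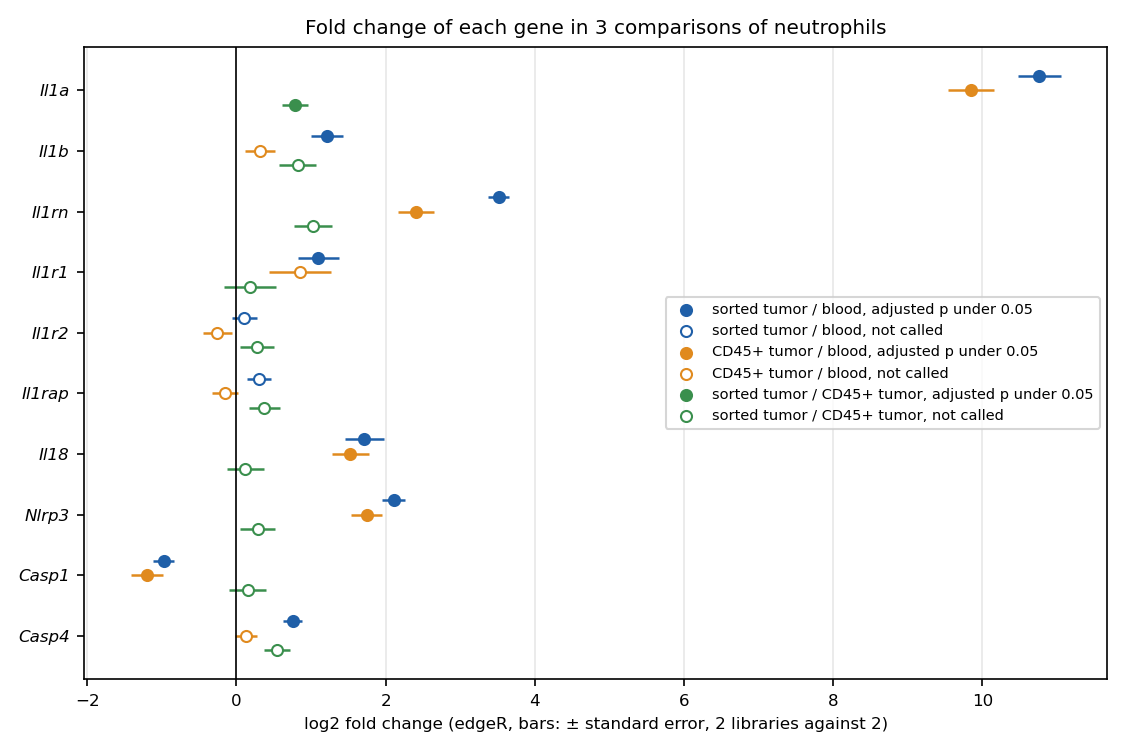
Log2 fold change of each gene with its standard error in sorted tumor against blood neutrophils, CD45+ tumor against blood neutrophils and sorted against CD45+ tumor neutrophils, 2 libraries against 2 in each. Filled points have an edgeR adjusted p under 0.05. Il1a, Il1rn, Il18 and Nlrp3 are filled to the right and Casp1 to the left in both comparisons with blood, which share the blood libraries.

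Other genes of the pathway were counted from lists. The list of further IL-1 family ligands, receptors and brakes held 16 symbols, of which 13 had a row in the files. The 3 without a row, Il36a, Il36b and Il36g, are other names of Il1f6, Il1f8 and Il1f9, which had rows. Of these genes 8 had enough counts to be tested, and 3 were higher in sorted tumor than in blood neutrophils, beside the 33.2% of all genes tested. Il1rl2, the IL-36 receptor, rose by a log2 of 4.71 ± 0.24 (edgeR adjusted p 5.62e-06), from 8 and 21 UMIs in blood to 374 and 507 in tumor. Il1f6, which encodes IL-36α, was too scarce to be tested. It had 1 and 0 UMIs in blood and 23 and 32 in tumor, which is 44.5 times the CPM (95% counting interval 7.67 to 1791). Il1f9, which encodes IL-36γ, was counted far more often, with 4547 and 5624 UMIs in blood and 7971 and 13370 in sorted tumor. The median log2 change of the 8 tested genes was 0.33, beside 0.02 for all genes tested.

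Of 18 tested inflammasome sensors, adaptors and pore formers, 8 were higher and 7 lower, beside 33.2% and 30.7% of all genes. P2rx7, the ATP-gated channel that triggers NLRP3, had 5 and 11 UMIs in blood and 1287 and 3192 in tumor, a log2 change of 7.83 ± 0.40 (edgeR adjusted p 5.19e-06). Casp8, a caspase that can also cut IL-1β, rose by 2.15 ± 0.18 (adjusted p 4.81e-05). The largest falls were those of Gsdme, a pore-forming gasdermin, at -2.99 ± 0.12 (adjusted p 3.07e-06), and Nlrp12, a sensor-like protein of the NLR family, at -2.83 ± 0.13 (adjusted p 3.79e-06). The list's median log2 change was 0.12. Without C1q cells 7 were higher and 7 lower, where 28.5% of all genes were higher and 28.5% lower, and P2rx7 stood at 8.65 ± 0.40.

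Of 12 genes that signal below the IL-1 receptor, 5 were higher and 3 lower, beside the same shares of all genes, with a median log2 change of 0.03. The kinase Irak2 rose by 3.03 ± 0.16 (edgeR adjusted p 6.04e-06) and the ubiquitin ligase Traf6 by 2.35 ± 0.17 (adjusted p 2.02e-05). The kinase Irak4 fell by 2.23 on the log2 scale (SE 0.12, adjusted p 7.67e-06) and the adaptor Myd88, to which it binds, by 1.505 (SE 0.15, adjusted p 8.74e-05). Of the other proteases that can cut IL-1, 3 of 6 had enough counts to be tested. Capn1, a calpain, was lower by a log2 of -1.67 ± 0.11 (adjusted p 1.63e-05).

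The CD45+ tumor libraries hold neutrophils taken without the neutrophil gate. Against the same blood libraries, 4 of the 10 genes were higher (Il1a, Il1rn, Il18 and Nlrp3) and Casp1 was lower. Of the 12308 genes tested, 30.0% were higher and 29.9% lower, and 82.4% did not overlap between groups. Il1a stood at 244.1 and 234.4 CPM, a ratio to blood of 1277 (95% counting interval 585 to 3488). Il1rn stood at 957.0 and 588.5 (log2 change 2.41 ± 0.24, edgeR adjusted p 0.000639). Nlrp3 stood at 1970 and 1384 (1.74 ± 0.21, adjusted p 0.00115). These libraries were above both blood libraries for each of these 3 genes, but apart from each other for Il1rn and Nlrp3. Il18 stood at 46.9 and 46.8 (1.53 ± 0.25, adjusted p 0.00355) and Casp1 at 11.6 and 15.6 (-1.2004 ± 0.219, adjusted p 0.00525).

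Il1b, Il1r1, Il1r2, Il1rap and Casp4 were not called in this comparison. Il1b stood at 6398 and 5863 CPM, above both blood libraries, with a log2 change of 0.32 ± 0.20 (edgeR adjusted p 0.222). These libraries carried the most macrophage RNA, and leaving out neutrophils with C1q UMIs changed 4 calls. Il1b then stood at 8640 and 8561 and rose by 1.201 ± 0.218 (adjusted p 0.00645), Il1r2 by 0.65 ± 0.18 (adjusted p 0.0289), Il1rap by 0.79 ± 0.16 (adjusted p 0.0104) and Casp4 by 0.64 ± 0.18 (adjusted p 0.0310). With them 8 genes were higher and Casp1 lower, where 19.7% of all genes were higher and 20.6% lower, and Il1r1 stayed uncalled at 1.03 ± 0.63. Casp1 then stood at -2.44 ± 0.53 (adjusted p 0.0125), which rests on 6 and 1 UMIs in the CD45+ libraries. The same count, 8 higher, was found at an S100 threshold of 2%, beside 2361 of 11222 genes higher over all. Leaving out the shared barcodes gave 4 higher and 1 lower, as with them, beside 3612 higher and 3628 lower of 12278 genes over all.

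The third comparison, sorted against CD45+ tumor neutrophils, asks what goes with the sort in the same tissue. Only Il1a was called, higher in the sorted libraries by a log2 of 0.78 ± 0.17 (edgeR adjusted p 0.0438). Of the 12495 genes tested, 2.17% were higher and 3.93% lower, and 61.4% did not overlap. Il1rn (1.02 ± 0.25, adjusted p 0.0560) and Il1b (0.82 ± 0.25, adjusted p 0.0825) were higher in both sorted libraries and missed the threshold. The Il1a call was lost without sorted tumor library 1 (0.67, adjusted p 0.161), without sorted tumor library 2 (0.91, adjusted p 0.187) and without C1q cells (0.67, adjusted p 0.323). It was lost without the shared barcodes too, at nearly the same size (0.79 ± 0.22, adjusted p 0.115), and genes called over all genes tested then fell from 762 to 34. Depth per neutrophil was lower and macrophage RNA higher in the CD45+ libraries, and their part in these differences was not tested.

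The share of neutrophils with a UMI was compared after thinning every cell to 1000 UMIs. Il1a was found in 18.3% and 15.04% of sorted tumor neutrophils (95% exact intervals 16.9 to 19.6% and 14.1 to 16.0%) and in 0 of 2821 and 0 of 4434 blood neutrophils. At that thinned depth a count of 0 allows up to 0.106% and 0.0677% of cells with a UMI, which does not limit the cells that express the gene. Before thinning the shares were 34.1% and 29.1% in tumor and 0.136% and 0.0400% in blood. Il1rn was found in 52.6% and 49.1% of tumor and 9.29% and 10.5% of blood neutrophils (76.2% and 74.9% against 31.0% and 30.1% before thinning). Nlrp3 was found in 62.8% and 60.5% against 31.7% and 29.2% (84.3% and 81.8% against 70.7% and 61.9% before thinning). For these 3 genes more cells held the transcript in both tumor libraries than in both blood libraries. Without C1q cells the thinned tumor shares were 17.4% and 14.7% for Il1a, 53.5% and 49.6% for Il1rn and 62.9% and 59.99% for Nlrp3.

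At 1000 UMIs per cell Il1b was found in similar shares of cells in both groups, unlike its UMIs per cell, though not at 500, as given below. Thinned, the shares were 88.2% and 87.6% of sorted tumor neutrophils and 90.04% and 86.1% of blood neutrophils, which overlap. Il1r2 was found in fewer tumor cells, 72.7% and 70.6% against 85.3% and 84.0%, although its level overlapped between the groups. In the cells at the 90th percentile it reached 34.4 and 31 UMIs in tumor against 25 and 22 in blood. Casp4 was found in 15.5% and 15.7% of tumor and 12.9% and 10.3% of blood neutrophils, and Il18 in 3.02% and 4.08% against 0.851% and 1.24%. The shares for Casp1 were 1.14% and 0.932% against 2.06% and 2.35%. Il1rap, at 47.0% and 50.8% against 47.5% and 44.8%, overlapped, as did Il1r1, under 0.5% in each of the 4 libraries. At 1000 UMIs per cell, 5 of the 10 genes were in a larger share of cells in both tumor libraries than in both blood libraries. Il1r2 and Casp1 were the 2 in a smaller share, with Casp1 subject to the limit given below. Over all 13633 genes tested those shares were 30.3% and 44.2%. At 500 UMIs 8 of the 10 were in a larger and 2 in a smaller share, beside 26.0% and 41.9% of all genes. The genes added were Il1b, Il1rap and Il1r1. Il1b was then found in 81.9% and 80.0% of tumor against 79.1% and 70.7% of blood neutrophils.

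Free RNA gives some UMIs to cells that do not make a transcript, and lymphocytes of the CD45+ tumor libraries were used to gauge it. No such gauge was taken in the sorted libraries, whose free RNA may differ. In T or NK cell-like cells of the CD45+ libraries (439 and 221 cells, median depths 3714 and 5472 UMIs), the thinned shares were 16.3% and 11.4% for Il1b, 2.09% and 2.27% for Il1a, 2.79% and 1.82% for Il1rn, 8.37% and 4.55% for Il1r2 and 9.07% and 5.91% for Nlrp3. All of these lay below the shares in tumor neutrophils of any library. So did those for Il1rap (2.56% and 2.73%), Il18 (0.465% and 0) and Casp4 (5.81% and 3.18%). For Casp1 (1.86% and 2.27%) and Il1r1 (0.698% and 2.27%) they did not. Single T or NK cell-like cells of library 1 held up to 121 UMIs of Il1r2 and 33 of Nlrp3, and whether these were doublets was not tested. The B or plasma cell-like class (217 and 51 cells, median depths 2012 and 3417) gave 3.05% and 8.16% for Il1b and 0.508% and 2.04% for Il1a. It gave 0 and 0 for Il1rn, 4.57% and 2.04% for Il1r2 and 2.54% and 2.04% for Nlrp3. Its shares were 1.02% and 2.04% for Casp1 and 0 and 0 for Il1r1. Whether T or NK cells make these 2 transcripts themselves was not tested. The shares of Casp1 and Il1r1 in single cells, the 2 values for Casp1 above included, are therefore given as values from which no difference is read.

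Within the tumor, neutrophils were set beside the other CD45+ cells of the same libraries. This is a description without a test, since the S100 genes split the cells. Of the 10 genes, 6 were at least 2-fold higher in neutrophils in both libraries and Casp1 at least 2-fold lower. Of 17770 genes with enough UMIs, 26.5% were higher and 10.4% lower by that rule. Il1rap stood furthest apart, at 1002 and 779.6 CPM in neutrophils against 89.0 and 97.4 in other cells, 11.2 and 8.002 times as high. The ratios were 6.44 and 4.31 for Il1rn, 5.16 and 4.28 for Il1r2, 4.98 and 4.24 for Il1b, 4.97 and 3.40 for Nlrp3 and 2.72 and 2.45 for Casp4. Casp1 was 2.45 and 2.03 times as high in the other cells, at 28.3 and 31.6 against 11.6 and 15.6, which rests on 16 and 53 UMIs in neutrophils. Without doublet removal it was 1.85 and 1.59 times as high there, under the 2-fold rule. With neutrophils without C1q UMIs, the same numbers, 6 higher and 1 lower, passed the 2-fold rule, as did 38.8% and 20.3% of all genes. The ratios of Il1rap were then 14.7 and 13.3, and Casp1 rested on 6 and 1 UMIs.

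Il1a, Il18 and Il1r1 were not set apart in this way. Il1a stood at 244.1 and 234.4 CPM in neutrophils and 119.7 and 181.5 in other cells, ratios of 2.04 and 1.29. In neutrophils without C1q UMIs it stood at 270.6 and 165.8, ratios of 2.26 and 0.914, so that in library 2 it was below the other cells. Il18 stood at 46.9 and 46.8 against 39.7 and 34.3, and Il1r1 at 7.22 and 4.9996 against 11.7 and 9.93. Neutrophils held 1.93% and 3.01% of all UMIs of the CD45+ libraries. They held 8.90% and 11.6% of the Il1b UMIs, 11.2% and 11.8% of those of Il1rn and 18.1% and 19.9% of those of Il1rap, but 3.85% in both libraries of those of Il1a and 0.794% and 1.51% of those of Casp1. Most UMIs of each of the 10 genes in these libraries were therefore counted in other leukocytes.

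The other cells were clustered without the 10 genes and named from markers, with 2101 and 2223 cells left unnamed. The 2 libraries fill the named classes from different clusters. In the monocyte-like class (3045 and 1938 cells), cluster 2 gave 833 and 15 cells and cluster 6 gave 57 and 541. In the macrophage-like class, cluster 3 gave 835 and 130 and cluster 5 gave 74 and 997. Cluster 2 passed the marker rule, but its leading genes include Wfdc21, Prtn3 and Lcn2, known from granulocytes and their precursors, and cluster 7, with many of the same leading genes (65 and 1126 cells), was left unnamed. Monocyte-like values are therefore also given without cluster 2 where they moved.

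Il1a was highest in microglia-like cells, at 385.4 and 534.7 CPM and in 22.0% and 33.7% of thinned cells, against 123.3 and 157.8 in monocyte-like (153.3 and 158.0 without cluster 2), 87.5 and 113.0 in macrophage-like and 31.7 and 57.3 in dendritic cell-like cells. The 2 libraries kept that order of the 4 classes. Microglia-like cells held 83.4 and 111 Il1a UMIs per 100 of Il1b, against 4.11 and 3.50 in sorted tumor neutrophils. Among these 4 classes Il1b was highest in dendritic cell-like (1782 and 2135) and monocyte-like cells (1554 and 2098, or 2469 and 2106 without cluster 2), which do not differ beyond the spread between libraries, and lower in macrophage-like (682.1 and 810.1) and microglia-like cells (462.4 and 481.6). All 4 classes lay below the tumor neutrophils of any library.

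Il1r2 was high in dendritic cell-like cells, at 2843 and 2360 CPM and in 67.2% and 69.0% of thinned cells, beside 3339 and 2649 in the neutrophils of the same libraries. It was at 619.4 and 631.5 in monocyte-like and 175.2 and 187.5 in macrophage-like cells. Dendritic cell-like cells held 32.7% and 29.2% of all Il1r2 UMIs of the CD45+ libraries. They held little Il1rn, 60.3 and 73.4, or 0.0339 and 0.0344 UMIs per UMI of Il1b, near the ratio of blood neutrophils. Monocyte-like cells held the most Il1rn among these 4 classes, at 200.1 and 196.8, or 283.9 and 196.5 without cluster 2. Il1rap reached 122.8 and 102.9 in monocyte-like (100.7 and 102.6 without cluster 2) and 108.0 and 103.7 in dendritic cell-like cells, well below any neutrophil library.

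Of the inflammasome genes, Nlrp3 (619.0 and 636.9) and Casp4 (248.8 and 218.9) were higher in microglia-like cells than in monocyte-like (405.6 and 444.2, and 74.2 and 85.9; 511.1 and 444.04, and 115.4 and 85.99 without cluster 2) or macrophage-like cells (351.1 and 344.2, and 68.9 and 61.7). Casp4 stood at 216.0 and 186.2 in the neutrophils of the same libraries, close to its level in microglia-like cells. Casp1 was similar across monocyte-like (29.5 and 31.8), macrophage-like (29.1 and 31.8), dendritic cell-like (27.0 and 34.8) and microglia-like cells (23.8 and 26.6). Among the 4 classes Il18 was lowest in dendritic cell-like cells (15.3 and 10.3) and between 31.2 and 54.8 in the 3 phagocyte classes. A further cluster, neutrophil-like by its markers but under the S100 threshold (88 and 79 cells), held 4040 and 3440 CPM of Il1b, 979.0 and 620.1 of Il1rn and 619.4 and 449.3 of Il1rap. Leaving it out of the other cells changed none of the 10 calls.

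**Figure D3:**
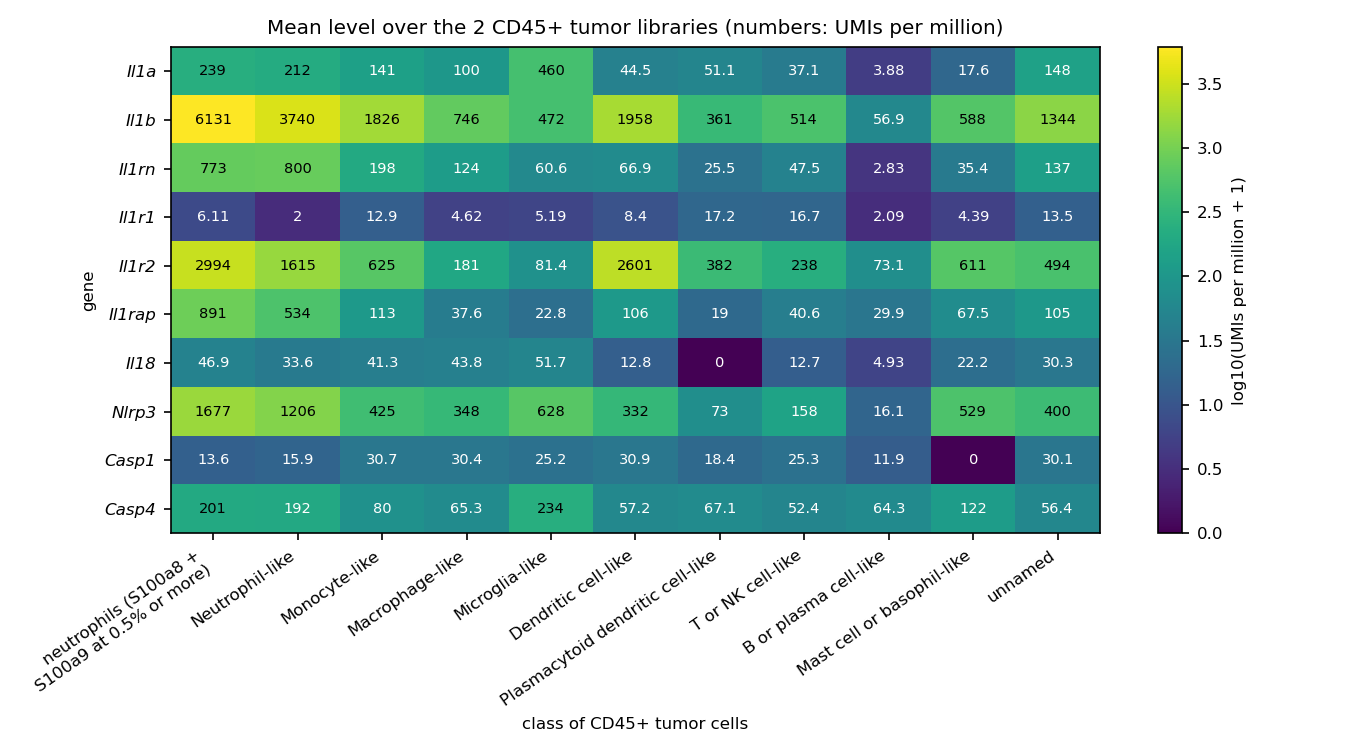
Mean level over the 2 CD45+ tumor libraries of each gene (rows) in neutrophils and in each class of other cells (columns), in CPM as printed, with colour on a log10(level + 1) scale. The neutrophil column is highest for Il1b, Il1rap and Nlrp3, the small neutrophil-like column slightly above it for Il1rn, the microglia-like column for Il1a, and Il1r2 is high in both neutrophils and dendritic cell-like cells.

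The ligand transcripts were also counted together in single cells thinned to 1000 UMIs. In sorted tumor, 10.1% and 7.72% of neutrophils held Il1a, Il1b and Il1rn at the same time and 3.94% and 3.598% held none of them, against 0 and 0 and 9.39% and 12.8% in blood. Tumor neutrophils with an Il1b UMI more often held Nlrp3 than those without, 66.3% against 36.9% and 63.7% against 37.4%. They more often held Il1r2, 76.4% against 44.5% and 74.6% against 41.7%. They less often held Il1rn, 51.3% against 62.0% and 46.5% against 67.4%. In blood the same split gave 9.69% against 5.69% and 10.9% against 7.78% for Il1rn. Both tumor libraries thus had Il1rn less often beside Il1b, and both blood libraries more often. Without C1q cells the shares with Il1rn were 52.1% against 64.2% and 46.99% against 68.7% in sorted tumor. These are shares within libraries, without a test, and cells share their library.

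The threshold on the S100 genes placed cells along a range rather than in a type. In sorted tumor, Il1b stood at 4501 and 4092 CPM in the 221 and 266 cells just under the threshold (0.25 to 0.5% of UMIs) and at 5546 and 3929 in the 319 and 420 cells just above it (0.5 to 1%). Il1a stood at 422.9 and 341.7 under and 459.6 and 440.7 above it, Il1rn at 1180 and 1013 under and 1380 and 1201 above, and Casp1 at 18.4 and 17.6 under and 16.4 and 22.4 above. In the CD45+ libraries the cells on either side were fewer (103 and 90 under, 102 and 91 above). There Il1b stood at 1646 and 1910 under and 2850 and 2633 above, and Il1rn at 332.6 and 237.4 under and 615.9 and 275.0 above.

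The genes also varied along that range within the sorted tumor libraries. In cells with 10% or more of their UMIs from the S100 genes, Il1b stood at 10836 and 9807 CPM against the 5546 and 3929 at 0.5 to 1%. Il1a ran the other way, at 211.5 and 175.7 in the cells richest in S100 transcripts. Il1rn was highest in the middle, at 1623 and 1490 in cells with 2 to 5%, and stood at 782.0 and 711.7 in the richest cells. Nlrp3 varied less, from 1265 and 1270 at 0.5 to 1% to 1624 and 1495 in the richest cells. A high S100 share lowers the room for other transcripts in the total, and its part in these trends was not tested.

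**Figure D4:**
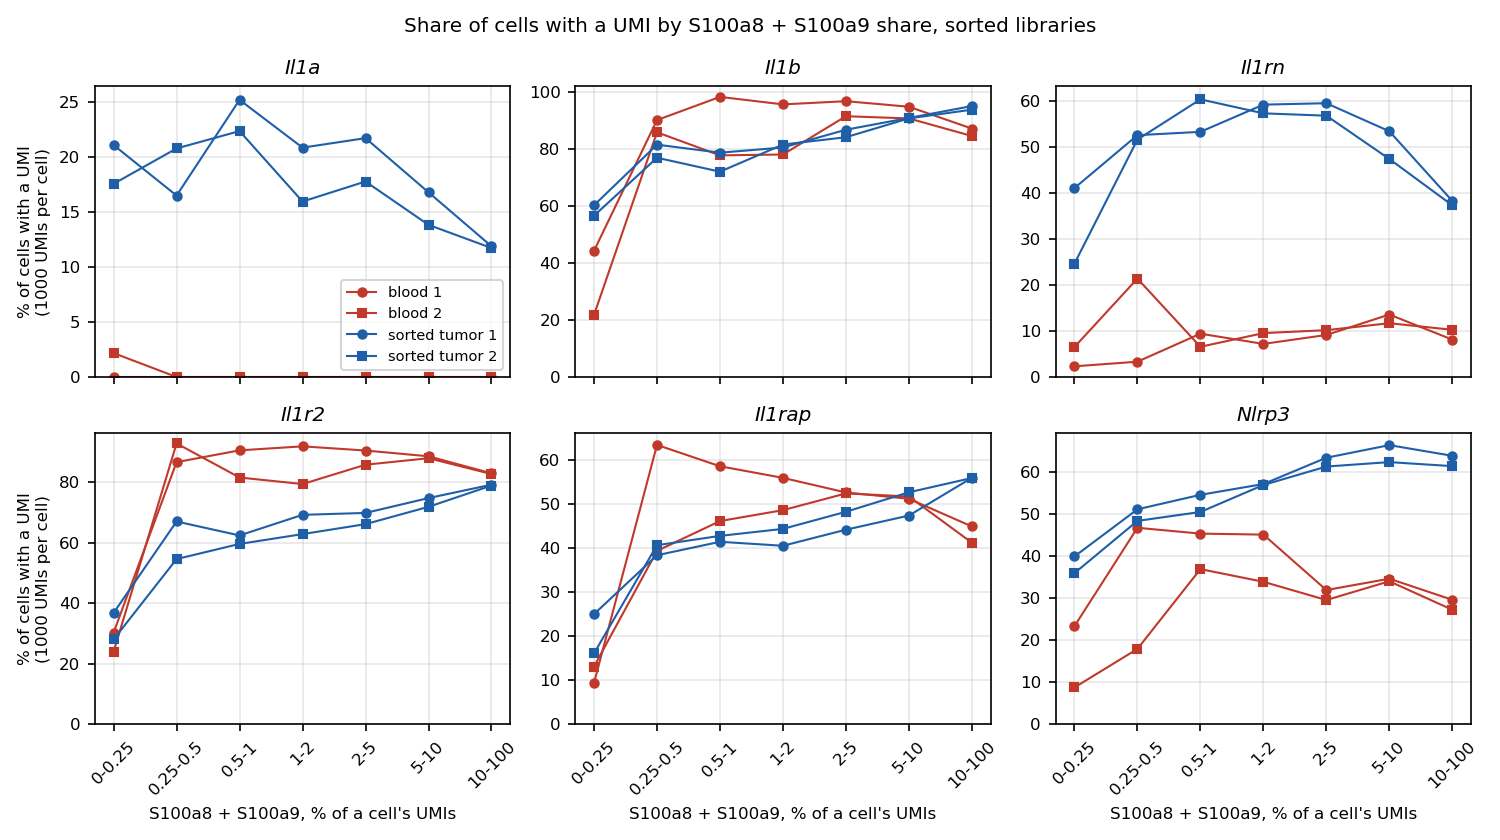
Share of cells with a UMI of a gene, after thinning to 1000 UMIs per cell, by the share of a cell's UMIs from S100a8 and S100a9, with 1 line per sorted library. In tumor libraries the share of Il1b-positive cells rises from the lowest bin to the highest while that of Il1a is lower in the highest bin than in the bin at 0.5 to 1%.

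Some genes had a pattern close to that of these genes over the 6 neutrophil sums and the 2 sums of other cells. Likeness was the distance between centred log2(CPM + 1) profiles over these 8 sums, among 8913 genes. The 3 closest to Il1a were Ccl12, Hilpda and Cdkn1a (distances 1.36, 1.52 and 1.55), and the 3 closest to Il1b were Trem1, Ptafr and Gm36198 (0.532, 0.552 and 0.559). Il1rn was closest to Gm14963 (0.2497), ahead of Gadd45b (0.579) and Gpsm1 (0.644). Il1r2 was closest to Msra, Selenon and Lmnb1 (0.316, 0.393 and 0.435), and Il18 to Abhd17c, Btaf1 and Cgas (0.391, 0.450 and 0.526).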

How the data were processed

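The authors deposited filtered matrices of raw UMI counts for each gene and cell, which are whole numbers; the submitters' processing notes name Cell Ranger 7.1.0 and mm10. Groups came from the labels. The genes and lists were chosen with earlier results of these data known. Cells under 200 genes or over 10% mitochondrial UMIs were dropped. Scrublet's automatic threshold marked 0 to 0.128% of cells, so the top-scoring cells were taken out instead, up to 0.8% per 1000 cells, leaving 8652, 8107, 3037, 5084, 4003 and 6235 cells (CD45+ tumor, blood, sorted tumor). UMIs were summed per library over neutrophils, which gave 1384566 and 3400261 UMIs in CD45+ tumor and 12864850 to 24386241 in the sorted libraries, so the CD45+ sums are the least precise. Sums were tested with edgeR 4.0.16 (TMM, filterByExpr, glmQLFit, glmQLFTest; adjusted p under 0.05) in R 4.3.3, without S100a8 and S100a9, which chose the cells, after the script was tested on simulated data. No 2 libraries of a group agreed within sampling noise (chi-square over its degrees of freedom 8.95, 10.5 and 20.3). Neutrophils were set beside other cells for genes with at least 20 UMIs. Other cells of the CD45+ libraries were clustered with scanpy 1.11.5 (2000 variable genes, 30 components, 15 neighbours, Leiden resolution 1). A cluster was named from at least 3 markers 2-fold above their median over clusters. Thinning drew 1000 UMIs per cell with seed 1 and left out shallower cells. Exact intervals are Clopper-Pearson at 95%, and intervals and limits (3 counts) cover counting error only. All 10 genes are named in each comparison, and from each pathway list up to 2 of the largest rises and 2 of the largest falls among genes called. Il1f6, too scarce to be tested, is named outside that rule, and Il1f9 is given beside it as UMIs only. The likeness search took genes with at least 10 CPM in at least 2 sums. Alternatives changed the scaling, filter, test (DESeq2 1.42.0), replicate block, S100 threshold, cell filters and libraries; those on shared barcodes, on C1q UMIs, on the neutrophil-like cluster and on cluster 2 were added after the data were seen.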

Additional observations from a re-analysis of the deposited data

How the results depend on the processing

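For sorted tumor against blood neutrophils, each alternative that kept all libraries gave 7 to 9 genes higher and Casp1 lower. Where 9 were higher, so were 3858 of 12831 genes tested at an S100 threshold of 2% and 3548 of 12445 without C1q cells. Without cells holding any UMI of C1qa, C1qb, C1qc, Apoe or Csf1r they were 3201 of 11076. The main fit gave 4530 of 13633, all cells of the sorted libraries 5269 of 14589 and no filter on low counts 5188 of 23365. Only with all cells in place of neutrophils did a direction turn (Il1r2 -0.25, Il1rap -0.059, neither called). The labels do not say whether equal replicate numbers mark the same mice. Deviations of same-numbered libraries correlated at 0.095, 0.004 and -0.074, which with 2 libraries per group cannot settle it. With 2 pairs per comparison the replicate block changed no member's call in the comparisons with blood (7 higher and 1 lower, 4 higher and 1 lower). Over all genes it called 4609 higher and 4249 lower of 13633 for sorted tumor, and 3410 and 3462 of 12308 for CD45+ tumor. Against CD45+ libraries the block gave 2 genes higher in place of 1 and 1166 calls over all genes in place of 762. Depth limits the CD45+ libraries most, whose neutrophil sums held 1384566 and 3400261 UMIs.

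For CD45+ tumor against blood neutrophils, 8 genes were higher at an S100 threshold of 2%, without cells holding any UMI of C1qa, C1qb, C1qc, Apoe or Csf1r, and without C1q cells, with 4739, 2532 and 4444 calls over all genes in place of 7376. Lower genes numbered 2 with no filter on low counts and 3 both at an S100 threshold of 0.25% and without doublet removal. Over all genes, 4599 of 21652, 4129 of 12609 and 4187 of 12773 were then lower. Leaving out a library gave 4674 to 7729 calls over all genes, the lowest without blood library 1 (4674) and blood library 2 (4823). Directions that turned were those of genes not called in the main fit. Il1b was at -0.12 at 0.25% and -0.13 without doublet removal. Il1r2 was at 0.18 at 1%, 0.70 at 2%, 0.79 without the 5 macrophage genes and 0.65 without C1q. Il1rap was at 0.29, 0.88, 1.03 and 0.79 under the same 4 settings and ranged from -0.30 to 0.0082 when a library was left out. Casp4 was at -0.067 with no filter, -0.20 at 0.25% and -0.24 without doublet removal.

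Sorted against CD45+ tumor neutrophils depended most on the settings. Genes higher numbered 4 with no filter, with DESeq2 and with all 3 groups in 1 fit, 7 at an S100 threshold of 0.25% and without doublet removal, and 0 at 1%, at 2%, without the 5 macrophage genes, without C1q and without shared barcodes. Leaving out a library gave 0 to 3. Over all genes, calls numbered 2525 with no filter, 1164 with DESeq2, 1624 with 3 groups, 3811 at 0.25%, 15 at 1%, 0 at 2%, 95 without macrophage genes, 4578 without doublet removal, 34 without shared barcodes and 10 without C1q. At 2%, where edgeR called 0 genes, 1009 had an unadjusted p under 0.05 (DESeq2 was run at the main threshold only). Leaving out a library gave 30 (without sorted tumor library 2), 165 (without sorted tumor library 1), 1522 and 1796. Turned directions, each of a gene not called, were as follows. Il1r1 was at -0.30 at 0.25%, -0.31 without macrophage genes and -0.11 without doublet removal, and from -0.10 to 0.40 when a library was left out. Il1r2 was at -0.0029 at 1%, -0.30 at 2%, -0.36 without macrophage genes and -0.23 without C1q. Il1rap was at -0.28, -0.39 and -0.21 under the last 3 of these. Il18 was at -0.042 at 1%, -0.085 at 2%, -0.13 without macrophage genes and -0.039 without C1q, and from -0.23 to 0.41 when a library was left out. Nlrp3 was at -0.20 at 2%, -0.19 without macrophage genes and -0.17 without C1q. Casp1 was at -0.12 at 0.25% and -0.13 without doublet removal, and from -0.0103 to 0.45 when a library was left out. Casp4 was at -0.29 without macrophage genes. The cause of these shifts was not tested.

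Shares thinned to 500 UMIs gave 8 genes in place of 5 in more tumor cells than blood cells. For neutrophils beside other cells, 2 genes (Casp1 and Il1r1) and 3663 genes over all were lower with neutrophils at 2% and others under 0.25%, and 0 and 515 without doublet removal. The calls at 2% rested on 6 and 9 UMIs of Casp1 and 2 and 5 of Il1r1 in neutrophils. Without C1q cells 1 gene (Casp1) and 3590 genes over all were lower, in place of 1 and 1856.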
